A study of Mus musculus with 8 samples.

Results

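The metallothionein and zinc response genes were Mt1, Mt2, Mt3, Mtf1 and Slc30a1, taken by symbol from the deposited table. All 5 were found among its 18257 genes, and all 5 were among the 12936 genes tested after a filter on low counts. The group was chosen by the level of Mt3 in A485 against control, one of the largest rises, so the values of Mt3 in this contrast are a description without a test. Mt3 passed the filter only through its counts in A485. The other 4 members are named with it in the same rule. Mt4, the remaining gene of the mouse metallothionein cluster, is no member and is shown beside them.

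Polyadenylated RNA was sequenced from wild-type mouse morulae, with 3 embryos per library and 4 libraries per group. Control embryos grew in KSOM, a medium for preimplantation embryos, with 0.1% DMSO, and treated embryos in KSOM with 2 µM A485, which inhibits the catalytic domain of the acetyltransferases p300 and CBP. Exposure began at the 4-cell stage, and the series describes it as lasting to the blastocyst, whereas the collected embryos are labelled morula. The libraries held 23641781 to 25677701 estimated counts. Nothing in the labels says whether pools came from different litters or culture days, so p-values measure the spread between these pools.

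Metallothioneins are small, cysteine-rich proteins that bind zinc and copper. When free zinc is high, the transcription factor MTF1 binds metal response elements and turns on Mt1, Mt2 and Slc30a1, whose product ZnT1 carries zinc out of the cell. In cultured mouse cells, zinc-activated MTF1 is known to recruit p300/CBP and Sp1 to the Mt1 promoter. Mt1 and Mt2 are widely expressed, Mt3 is best known from the brain, and Mt4 from stratified epithelia.

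The labelled tissue was checked against its markers. All 12 preimplantation markers were tested, of which 3 rose and 8 fell (edgeR, adjusted p under 0.05, which 29.7% of all tested genes passed as higher and 25.0% as lower). Among those that fell, Pou5f1, the pluripotency factor Oct4, had 845 ± 98.5 CPM in control and 293 ± 79.3 CPM in A485 (± SD, n = 4 each; CPM are counts relative to the TMM-scaled library size). The others that fell had log2 fold changes of -4.71 (Cdx2), -3.19 (Nanog), -3.19 (Tdgf1), -2.40 (Gata3), -1.77 (Tfap2c), -1.42 (Sall4) and -0.71 (Dppa5a). The keratin genes Krt8 and Krt18, with log2 fold changes of 1.71 and 1.12, and Klf17, with 3.20, were the 3 that rose. The 6 blood markers summed to 34.2 to 48.9 CPM in control and 171 to 470 CPM in A485 (exact two-sided permutation p = 0.0286, the smallest that 70 assignments allow). Hba-a1 and the macrophage marker Cd68 carried that sum, while Hbb-bs, Hbb-bt, Alas2 and Ptprc had group means of at most 0.0798 CPM. The 9 neural markers in the table, relevant because Mt3 is a brain gene, summed to 3.88 to 8.17 CPM in control and 10.4 to 22.5 CPM in A485 (exact permutation p = 0.0286). Of the 4 that were tested, Syp and Mbp rose (log2 fold changes of 2.25 and 1.35) and 2 did not pass. Mean levels of Slc1a3, Syt1 and Slc1a2 were 0.600, 0.232 and 0.197 CPM in control and 0.265, 0.0735 and 0.0680 CPM in A485. Those of Snap25 and Stmn2 were 0.374 and 0.144 CPM in control and 0.768 and 0.277 CPM in A485. Gfap and Rbfox3 also had higher means in A485, at most 0.116 CPM. The 10 cumulus and granulosa markers summed to at most 0.176 CPM in control and to 1.33 to 5.21 CPM in A485 (exact permutation p = 0.0286), with 1 of them, Inha, past the filter. Inha had 0 counts in every control library and passed only through A485. In A485, Inha, Vcan, Tnfaip6, Inhba and Foxl2 had means of 1.46, 0.566, 0.514, 0.329 and 0.165 CPM. Ptx3, Has2, Fshr, Amh and Cyp19a1 had means of at most 0.0339 CPM in either group. Any sum whose groups do not overlap gives p = 0.0286 in this permutation test, and 51.5% of all tested genes did not overlap. The 5 sperm markers reached at most 0.837 CPM (exact permutation p = 0.657). No marker was at 0 in all libraries, and the part of these cell types in the results below was not tested.

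The 4 metallothionein genes lie side by side on the plus strand of chromosome 8 (RefSeq annotation of GRCm38.p6), within 43124 bases. Mt4 spans 94137204 to 94139031 and Mt3 94152607 to 94154148. Mt2 spans 94172618 to 94173567 and Mt1 94178883 to 94180327. The gap between Mt4 and Mt3 is 13575 bases, that between Mt3 and Mt2 18469 bases and that between Mt2 and Mt1 5315 bases. Mtf1 lies on chromosome 4 at 124802549 to 124849800, and Slc30a1 on chromosome 1 at 191906697 to 191913248. None of the 4 metallothionein genes had a stretch of 50 bases in common with a transcript of another gene in GENCODE M21. Their estimated counts were whole in all 8 libraries, whereas those of Mtf1 were not whole in any.

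The 250 bases before the RefSeq transcript start of Mt2, Mt3 and Mt4 are shown because neighbours in 1 cluster went in opposite directions and because MTF1 acts through short elements near the start. Capitals mark matches to the core of the metal response element, searched as TGCACNC and TGCGCNC on both strands (the motifs differ at a fixed base and cannot match the same bases of a strand). The letters run in the direction of the gene, so a match on the opposite strand appears as its reverse complement. The sequences are from RefSeq on GRCm38.p6, and all of these genes are on the plus strand.
Mt2 (chr8:94172368-94172617): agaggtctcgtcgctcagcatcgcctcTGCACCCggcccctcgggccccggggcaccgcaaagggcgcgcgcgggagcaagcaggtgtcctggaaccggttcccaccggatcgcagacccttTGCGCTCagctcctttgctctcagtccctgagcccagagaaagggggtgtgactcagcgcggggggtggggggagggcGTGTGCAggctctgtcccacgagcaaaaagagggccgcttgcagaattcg
Mt3 (chr8:94152357-94152606): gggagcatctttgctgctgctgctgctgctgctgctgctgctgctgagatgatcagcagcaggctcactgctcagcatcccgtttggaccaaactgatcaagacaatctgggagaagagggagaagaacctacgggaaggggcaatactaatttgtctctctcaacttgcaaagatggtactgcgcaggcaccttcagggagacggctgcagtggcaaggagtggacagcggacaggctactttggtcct
Mt4 (chr8:94136954-94137203): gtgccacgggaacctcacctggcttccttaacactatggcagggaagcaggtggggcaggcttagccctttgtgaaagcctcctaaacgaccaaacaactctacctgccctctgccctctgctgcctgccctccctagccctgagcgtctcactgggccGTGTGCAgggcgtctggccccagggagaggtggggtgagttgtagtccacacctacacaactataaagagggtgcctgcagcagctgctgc
For Mt1 and Slc30a1 the transcript start of the same table lies 206 and 84 bases inside the annotated gene, so only the 30 bases around their core match are printed.
Mt1 (chr8:94179055-94179084): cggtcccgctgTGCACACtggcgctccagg
Slc30a1 (chr1:191906727-191906756): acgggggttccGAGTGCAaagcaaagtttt

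The Mt2 window held 3 core matches, starting at positions -223, -128 and -50 from the transcript start, the last on the opposite strand. The windows of Mt1, Mt4 and Slc30a1 held 1 each, starting at -23, -91 and -43, and those of Mt3 and Mtf1 held 0. Of 32851 such windows of the RefSeq table, 21.4% held at least 1 match and 1.26% at least 3. A match is a description of letters, not of binding, and no match says only that these letters are not in this window. GENCODE M21 lists further Mt1 transcripts that start 122 and 152 bases downstream and further Mt3 transcripts that start 139 bases downstream. Its Mt2 transcripts start 46 and 242 bases downstream, and none starts at the RefSeq start. The bases between these starts and the RefSeq start were not searched. The windows of Mt1 and Mt2 held more CpG, with an observed over expected ratio of 0.80 and 0.74, than those of Mt3 and Mt4, with 0.27 and 0.22. Mtf1 and Slc30a1, which changed in opposite directions in A485, had nearly the same ratio, 0.793 and 0.79. The median of all windows was 0.37, with quartiles of 0.17 and 0.72.

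**Figure D1:**
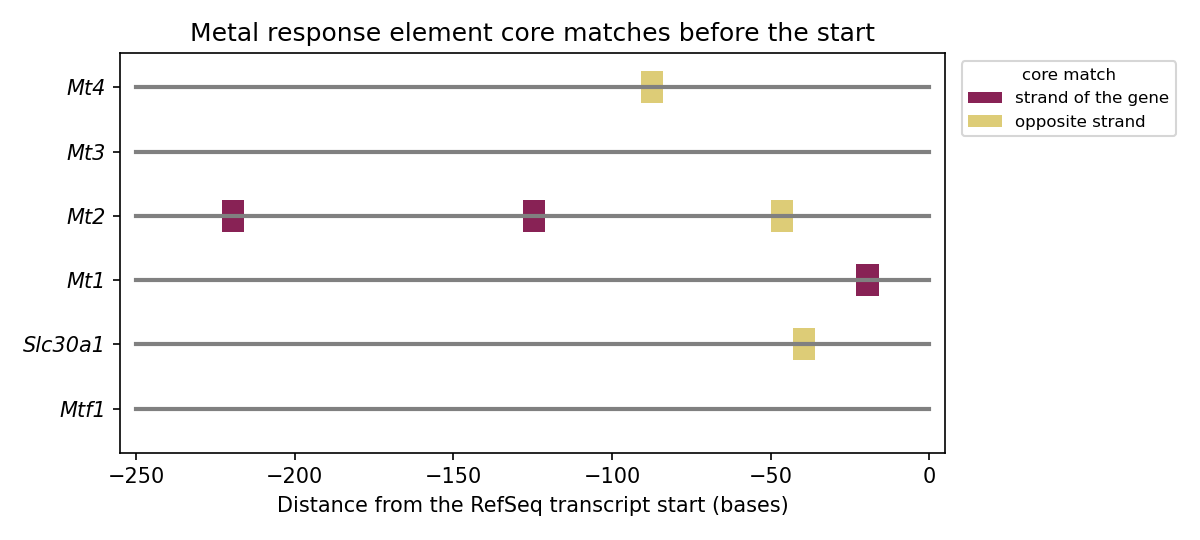
Positions of matches to the metal response element core in the 250 bases before the RefSeq transcript start (position 0) of each gene, coloured by strand. Mt2 has 3 matches, Mt1, Mt4 and Slc30a1 have 1 each, and Mt3 and Mtf1 have 0. Bases between the RefSeq start and GENCODE starts downstream of it in Mt1, Mt2 and Mt3 were not searched.

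Mt1 and Mt2, the abundant metallothioneins of the control morula, were lower in A485. Mt1 had 3237, 3807, 2848 and 2658 CPM in control replicates 1 to 4 and 2030, 1491, 866 and 1143 CPM in A485 replicates 1 to 4. Every A485 library lay below every control library, with the first A485 library nearest to control and the third farthest. The control mean of 3138 ± 508 CPM stood against 1382 ± 502 CPM in A485 (± SD, n = 4 each), a 2.27-fold difference. The log2 fold change of A485 over control was -1.18 ± 0.25 (SE; edgeR quasi-likelihood test, Benjamini-Hochberg adjusted p = 0.0025). In bulk pools, fewer cells with a transcript and less of it per cell cannot be told apart.

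Mt2 had 2264, 2162, 1833 and 1889 CPM in the control libraries and 1428, 1082, 615 and 885 CPM in the A485 libraries. The groups again did not overlap, and the A485 libraries stood in the same order as for Mt1. Mt2 fell from a mean of 2037 ± 208 to 1003 ± 342 CPM (± SD, n = 4 each), with a fitted log2 change of -1.02 ± 0.23 (SE; adjusted p by edgeR = 0.00366).

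Mt3 was close to absent from control embryos. Control replicates 1 and 2 held 4 counts and 1 count of Mt3, and control replicates 3 and 4 held 0. A485 replicates 1 to 4 held 342, 1400, 2342 and 1831 counts. On the CPM scale the A485 libraries had 14.0, 51.2, 79.7 and 67.7, and the highest control library had 0.176. The first A485 library thus stood well below the other three, though far above every control library. Over the groups, 5915 counts in A485 stood against 5 in control, 989 times as many once TMM-scaled library sizes are taken into account. That ratio pools the libraries of each group and is no test, and 4 of the 5 control counts came from 1 library. Without control replicate 1 the fitted log2 fold change was 11.4, against 9.78 with all libraries. It was 9.07 without A485 replicates 3 and 4.

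Mt4, 13575 bases from Mt3, was low but present in control. It had 2.77, 2.84, 2.00 and 2.41 CPM in the control libraries and 5.58, 19.3, 27.3 and 16.5 CPM in the A485 libraries. As for Mt3, the first A485 library was the lowest and the third the highest of its group. Mt4 rose with a fitted log2 change of 2.78 ± 0.42 (SE; adjusted p by edgeR = 0.000401).

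Mtf1, the gene of the zinc-sensing activator, was lower in A485 with little spread. It had 34.4, 34.8, 28.5 and 33.1 CPM in the control libraries and 13.8, 13.0, 12.7 and 10.8 CPM in the A485 libraries. The A485 libraries lay close together, and the groups did not overlap. The estimated counts of Mtf1 were not whole in any library, and its transcripts were not searched for stretches shared with other genes. Mtf1 fell from a mean of 32.7 ± 2.87 to 12.6 ± 1.29 CPM (± SD, n = 4 each), with a fitted log2 change of -1.38 ± 0.15 (SE; adjusted p by edgeR = 6.41e-05).

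Slc30a1, encoding the zinc exporter ZnT1, was higher in A485 at a low level. It had 4.23, 6.32, 3.21 and 4.73 CPM in the control libraries and 10.8, 12.1, 7.96 and 13.5 CPM in the A485 libraries, from 77 to 365 counts. The third A485 library, which was lowest for Mt1 and Mt2, was also the lowest of its group for Slc30a1. Slc30a1 rose from 4.62 ± 1.30 to 11.1 ± 2.36 CPM (± SD, n = 4 each), with a fitted log2 change of 1.26 ± 0.26 (SE; adjusted p by edgeR = 0.00225).

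**Figure D2:**
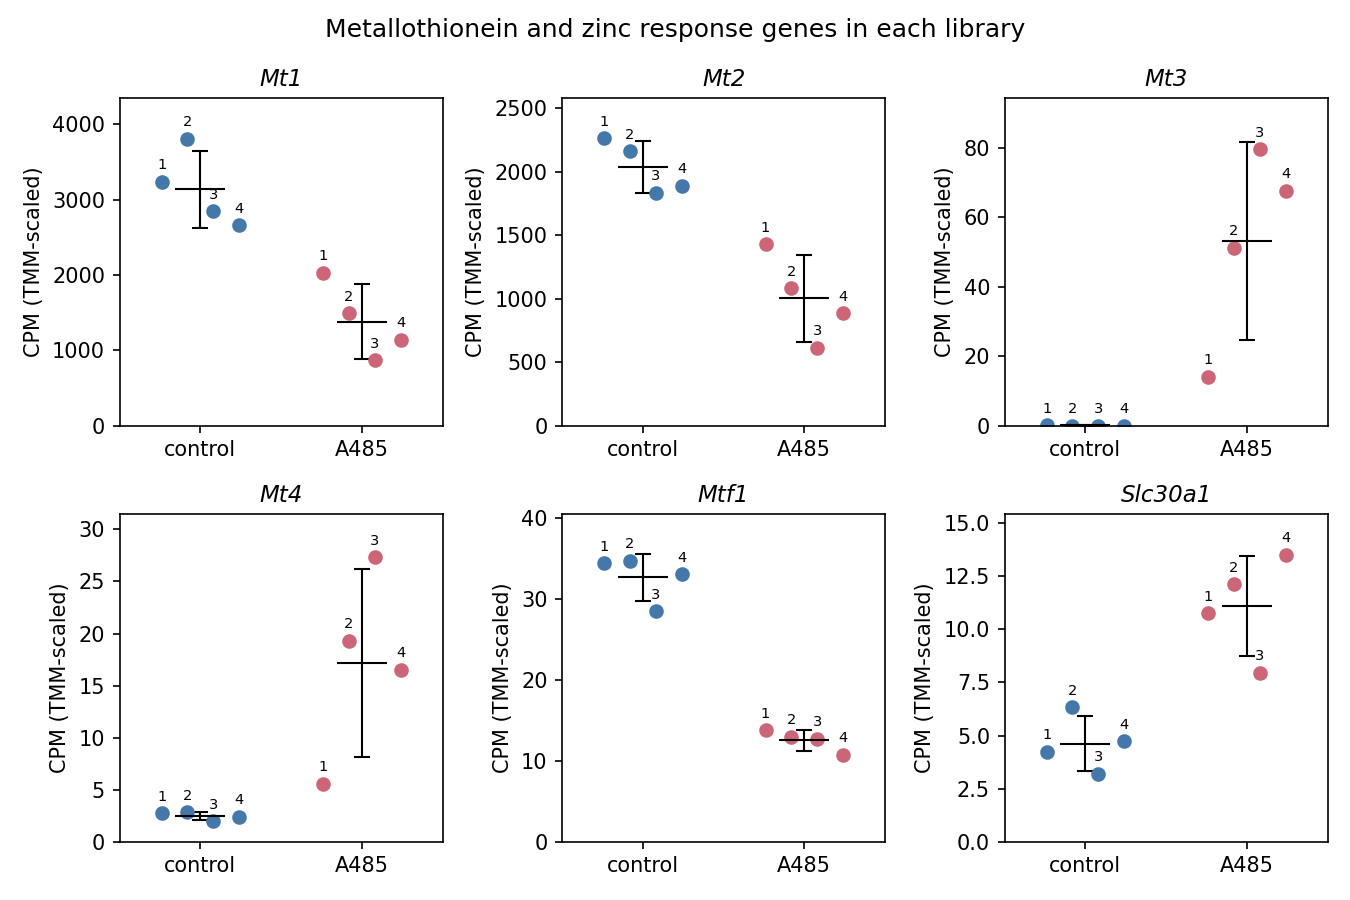
TMM-scaled CPM of the 5 members and Mt4 in each library (points, numbered by replicate), with the mean and SD of 4 libraries per group (lines and bars). Mt1, Mt2 and Mtf1 lie lower in every A485 library than in any control library, and Mt3, Mt4 and Slc30a1 higher.

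Of the 4 members given a p-value, 3 fell and 1 rose. Of all tested genes, 54.7% were called at an adjusted p of 0.05, made up of 29.7% higher and 25.0% lower. The groups did not overlap in any of the 5 members, as in 51.5% of all tested genes. Since this contrast chose the group, nothing is read from these counts. The authors' deposited table gives the same directions, with log2 fold changes of -1.21 for Mt1, -1.05 for Mt2, 9.87 for Mt3, -1.41 for Mtf1 and 1.23 for Slc30a1.

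Levels of different genes were compared on the TPM scale, which accounts for transcript length. In control embryos Mt1 had 8408 ± 1171 TPM and Mt2 5260 ± 421 TPM (± SD, n = 4 each), followed by Mt4 with 11.8 ± 1.41 TPM and Mtf1 with 4.10 ± 0.22 TPM. Slc30a1 had 0.85 ± 0.22 TPM, and Mt3, with 0.148 ± 0.222 TPM, was the lowest. No neighbours in this order overlapped across the control libraries. Mt1 ranked between 4 and 11 among all 18257 genes in the control libraries and Mt2 between 23 and 38.

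In A485 the order was Mt1 at 4534 ± 1247 TPM, Mt2 at 3174 ± 811 TPM, Mt3 at 189 ± 110 TPM, Mt4 at 107 ± 64.4 TPM, Slc30a1 at 2.55 ± 0.52 TPM and Mtf1 at 1.97 ± 0.29 TPM (± SD, n = 4 each). The ranges of Mt1 and Mt2, of Mt3 and Mt4, and of Slc30a1 and Mtf1 overlapped across libraries, so these neighbours did not separate beyond their spread. Within each A485 library, Mt1 was above Mt2 and Mt3 above Mt4. Slc30a1 and Mtf1 changed places between the groups, with Mtf1 above Slc30a1 in every control library, while in A485 replicate 3 Mtf1 had 2.22 and Slc30a1 2.05 TPM.

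The 4 metallothionein genes together made up 1.37 ± 0.15% of all TPM in control and 0.80 ± 0.19% in A485 (± SD, n = 4 each). Their summed level ran from 11871 to 15279 TPM in control and from 5997 to 9889 TPM in A485. Mt3 and Mt4 made up a small share of this pool. Mt3 was at most 0.0033% of it in control and 0.415%, 1.98%, 5.10% and 3.28% in A485 replicates 1 to 4. Mt4 was 0.077 to 0.095% in control and 0.286 to 3.06% in A485. The rank of Mt3 among all genes went from between 10128 and 15207 in control to between 576 and 2191 in A485. The TPM ratio of Mt1 to Mt2 was 1.46 to 1.83 in control and 1.34 to 1.47 in A485, ranges that overlapped.

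The A485 libraries differed among themselves, and the members differed with them. Relative to the control mean, log2 CPM of Mt1 was lower by 0.61, 1.06, 1.84 and 1.44 in A485 replicates 1 to 4. The differences were -0.51, -0.91, -1.72 and -1.20 for Mt2 and 6.87, 8.74, 9.37 and 9.14 for Mt3. For all 3 genes the distance from control was smallest in replicate 1, then 2, then 4, and greatest in replicate 3. The median of the 3836 other genes called higher was 1.22, 1.52, 1.83 and 1.66 in the same libraries, and that of the 3235 other genes called lower was -0.90, -1.09, -1.28 and -1.18, the same order. Mtf1, at -1.24, -1.32, -1.35 and -1.59, and Slc30a1, at 1.25, 1.42, 0.82 and 1.57, did not follow it. Nor did Mt4, at 1.14, 2.92, 3.42 and 2.69, where replicate 4 lay closer to control than replicate 2. The part of this library-wide spread in the members' values was not tested.

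**Figure D3:**
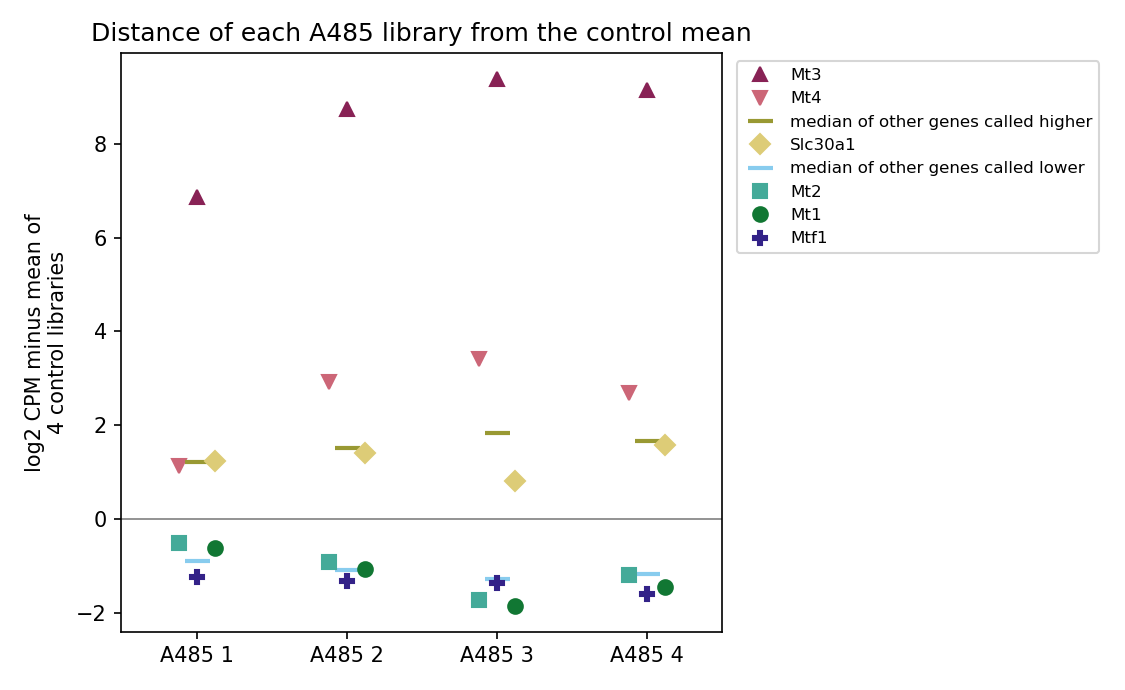
Log2 CPM of each member and Mt4 in each A485 library minus the mean of the 4 control libraries, with the medians of the other genes called higher or lower (dashes). Mt3, Mt1 and Mt2 lie closest to control in replicate 1 and farthest in replicate 3, whereas Slc30a1 is lowest in replicate 3.

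Genes on either side of the cluster were examined next, within 250 kb of it. Of the 7 described here, 5 were tested, and 1 rose, 2 fell and 2 did not pass, where 54.7% of all tested genes passed (29.7% higher and 25.0% lower), so nothing is read about the locus from this count. Herpud1, a gene of endoplasmic reticulum protein degradation, had 5.55 to 15.3 CPM in control and 21.6, 35.7, 87.4 and 23.5 CPM in A485. Its log2 fold change was 1.87 ± 0.48 (SE; adjusted p by edgeR = 0.00907), or 1.22 without A485 replicate 3.

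The other 4 of these tested neighbours had smaller log2 fold changes. Bbs2, upstream of Mt4, had a fitted log2 change of -0.63 ± 0.27 (SE; adjusted p by edgeR = 0.0744), and Ogfod1 of -0.24 ± 0.19 (SE; adjusted p by edgeR = 0.298). Nup93, a nuclear pore gene downstream of Mt1, fell with a fitted log2 change of -0.61 ± 0.15 (SE; adjusted p by edgeR = 0.00607), and its call was lost under total-count scaling (adjusted p = 0.0646). Nudt21, encoding a subunit of the mRNA 3′ end cleavage factor, fell by 0.33 ± 0.12 on the log2 scale (SE; adjusted p by edgeR = 0.0422), and this call was lost in 10 of 19 alternatives. Gnao1 and Slc12a3 did not pass the filter, with means of at most 0.868 CPM in either group.

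**Figure D4:**
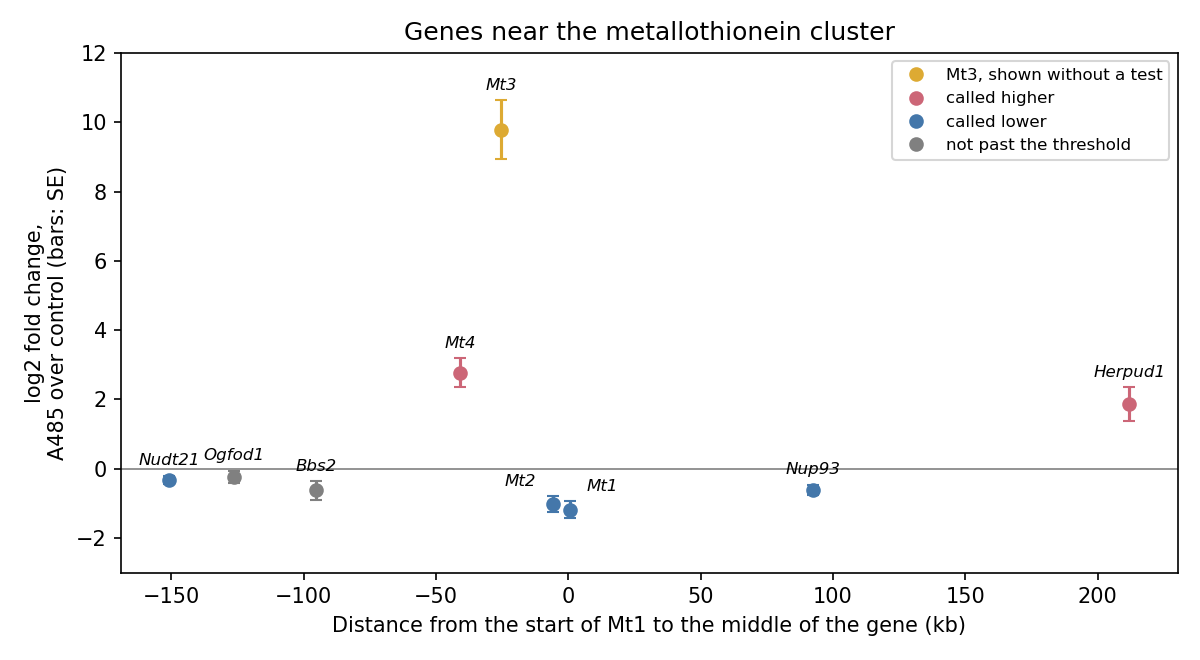
Log2 fold change of A485 over control (points, with SE bars) of the described and tested genes within 250 kb of the metallothionein cluster, by distance from the start of Mt1 to the middle of the gene. Mt3 and Mt4 lie above 2, Mt1 and Mt2 near -1, and Bbs2 and Nup93 on either side near -0.6.

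Zinc transporters changed in both directions. Counts in this and the following lists stand beside 29.7% of all tested genes called higher and 25.0% called lower. Of 8 tested exporters of the Slc30 family beside Slc30a1, 3 rose, 1 fell and 4 did not pass, with a median log2 fold change of 0.20 against 0.09 for all tested genes. Slc30a3, which loads zinc into vesicles, had 1.37, 0.54, 1.04 and 1.62 CPM in control and 13.0, 14.7, 24.2 and 13.0 CPM in A485 (log2 fold change 3.82 ± 0.36, SE). Slc30a9 and Slc30a5, the latter a transporter of the secretory pathway, rose by 1.86 ± 0.22 and 0.67 ± 0.17 on the log2 scale (SE). Slc30a2, a vesicular exporter, fell from a mean of 35.6 ± 6.12 to 10.9 ± 2.46 CPM (± SD, n = 4 each).

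Of 11 tested importers of the Slc39 family, 2 rose, 2 fell and 7 did not pass, with a median log2 fold change of 0.00. Slc39a4, encoding the plasma membrane importer ZIP4, was the most abundant of them by mean CPM in control and in A485. It had 168, 157, 148 and 135 CPM in control and 507, 434, 609 and 888 CPM in A485, with no overlap (log2 fold change 2.00 ± 0.21, SE). Slc39a6, encoding ZIP6, rose by 1.76 ± 0.28 on the log2 scale (SE). Slc39a2 fell from a mean of 32.0 ± 4.64 to 4.46 ± 1.71 CPM (± SD, n = 4 each), and Slc39a14, encoding the zinc and iron importer ZIP14, from 12.2 ± 1.00 to 2.99 ± 1.18 CPM. The edgeR adjusted p of these 8 transporters was at most 0.00754.

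Among 8 genes described elsewhere as MTF1 targets, 3 rose, 1 fell and 4 did not pass, and with a filter of 5 CPM, which tests fewer genes, 1 rose and 1 fell. Ndrg1, a stress and hypoxia response gene, had 2.98 to 6.46 CPM in control and 17.7, 134, 99.8 and 68.2 CPM in A485, where the first library was again the lowest. Afp, encoding alpha-fetoprotein, rose by 5.37 ± 0.84 (log2, SE) between means of 0.417 and 17.8 CPM, and leaving out control replicate 3 gave 6.53. Control libraries held 6, 1, 27 and 5 counts of Afp, which passed the filter on low counts only through A485. Gclc, a subunit gene of the enzyme that starts glutathione synthesis, rose by 1.95 ± 0.33 on the log2 scale (SE). Selenow, encoding a selenoprotein, fell by 0.85 ± 0.16 on the log2 scale (SE).

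Of 11 genes of other factors linked to metallothionein transcription, 6 rose, 2 fell and 3 did not pass. The shares among all tested genes were 29.7% higher and 25.0% lower, so nothing is read from this count. With the 5 CPM filter 4 of these genes rose and 1 fell. Keap1 is among the 11, and its product is a cytoplasmic inhibitor of NRF2 that does not itself act at promoters. Nr3c1, the glucocorticoid receptor, rose from 0.395 ± 0.179 to 2.24 ± 0.83 CPM (± SD, n = 4 each). With 10, 3, 13 and 10 counts in control, Nr3c1 also passed the filter on low counts only through A485. The related factors Usf1 and Usf2 went opposite ways, with log2 fold changes of -0.86 ± 0.21 and 2.18 ± 0.37 (SE). Hif1a, the oxygen-regulated factor, rose by 1.09 ± 0.29 on the log2 scale (SE). The genes of the targets of A485, Ep300 and Crebbp, had 1.83 ± 0.75 and 8.23 ± 2.08 CPM in control and 4.10 ± 1.08 and 13.9 ± 0.78 CPM in A485 (± SD, n = 4 each). Both passed, with edgeR adjusted p of 0.0197 and 0.00917. For Ep300 the call depended on single libraries: leaving out control replicate 3, control replicate 4 or A485 replicate 2 gave an edgeR adjusted p of 0.0603, 0.0598 and 0.0609, and leaving out A485 replicates 1 and 2 gave 0.122. Stat3, which fell with Usf1 and is named here after its value was seen, had a log2 fold change of -0.79 and lost its call in 10 of 19 alternatives. The replicate block was among them, with a log2 fold change of -0.85 and an edgeR adjusted p of 0.0525.

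Copper and iron genes were examined because metallothioneins also bind copper. Of 11 copper genes, 2 rose, 4 fell and 5 did not pass (median log2 fold change -0.35). Among all tested genes 29.7% were called higher and 25.0% lower. Atox1, a copper chaperone, rose from 216 ± 28.7 to 378 ± 31.6 CPM (± SD, n = 4 each). Sco1 and Cox11, which deliver copper to cytochrome c oxidase, were lower, both past the threshold, at -1.33 ± 0.20 and -0.89 ± 0.16 (log2 fold change and SE). Ccs, the copper chaperone of superoxide dismutase, fell by 0.86 ± 0.14 on that scale.

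Of 11 tested iron genes, 4 rose, 2 fell and 5 did not pass (median 0.13). Fth1, the ferritin heavy chain, had 1593 to 1989 CPM in control and 3365, 3427, 4295 and 6066 CPM in A485. Pcbp2 and Ireb2, an iron chaperone gene and the gene of iron regulatory protein 2, rose by 1.41 ± 0.14 and 1.37 ± 0.22 on the log2 scale (SE). Steap3, a ferrireductase gene, fell from a mean of 58.4 ± 9.37 to 11.1 ± 2.16 CPM (± SD, n = 4 each). The shares called in these 6 lists are to be read against the 54.7% of all tested genes (29.7% higher and 25.0% lower). None is called particular to its list.

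**Figure D5:**
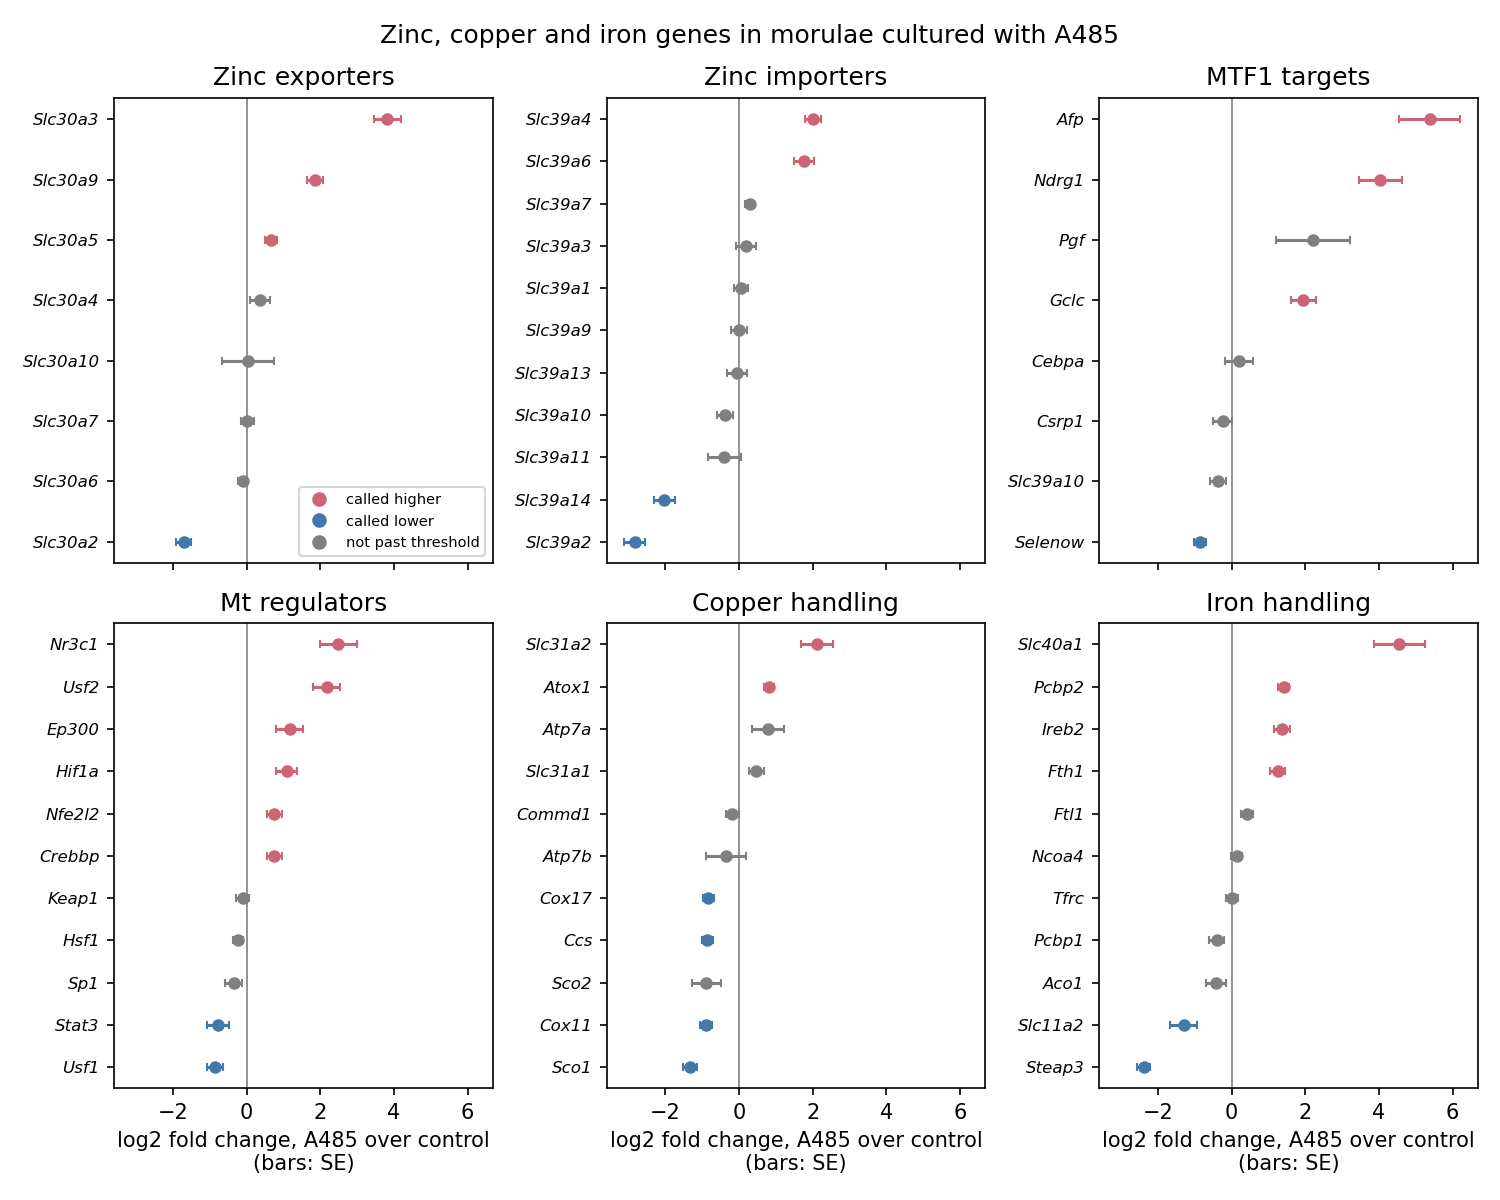
Log2 fold change of A485 over control (points, with SE bars) of the tested genes of 6 lists, coloured by the edgeR call at an adjusted p of 0.05. Slc30a3, Slc39a4 and Afp lie highest in the exporter, importer and MTF1 target lists, and Slc30a2, Slc39a2 and Steap3 lowest in the exporter, importer and iron lists.

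The genes whose pattern was most like that of a metallothionein were ranked by Pearson r of log2 CPM over the 8 libraries, among well-covered tested genes (average log2 CPM of at least 3). The libraries fall into 2 treatment groups that set most of each r, so the order is a description. For Mt1 they were Prdx5, a peroxiredoxin (r = 0.993), Trim43a (0.991), Mt2 (0.990), the replication licensing factor Cdt1 (0.989) and Npm1, nucleophosmin (0.989). For Mt2 they were Wtap (0.996), Rsl24d1 (0.993), Lrr1 (0.993), Coq7 (0.993) and Cdt1 (0.991). For Mt3 they were Bbx (0.998), Card19 (0.996), F3, the tissue factor gene (0.996), Eps8l2 (0.994) and Apobr (0.994). Unlike Mt3, these 5 were present in control, with means of 1.16 to 8.76 CPM there and 18.8 to 125 CPM in A485.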

How the data were processed

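RNA of 8 libraries (4 control, 4 A485) was measured. Per the submitters' processing notes, HISAT2 2.2.1, RSEM 1.2.28, DESeq2 1.40.2 and GRCm38.p6 were used, and per the labels' protocols cDNA was preamplified and libraries were made with a transposase. Whether counting used strand is not stated there. The authors deposited, per gene and library, an estimated count, an FPKM, a TPM and a normalized count, a signal that is the count divided by 1 factor per library, together with their log2 fold change, p-value and q-value. FPKM and normalized counts were not used.

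Estimated counts (18.2% not whole) were rounded, and edgeR 4.0.16 under R 4.3.3 compared the groups (filterByExpr, TMM, robust quasi-likelihood fit, group only), p-values adjusted by Benjamini-Hochberg across the 12936 genes tested, called under 0.05. SE is the log2 fold change over the root of F. Log2 CPM used a prior count of 2. Code was tested on simulated data. Python 3.11.15 with scipy 1.17.1 gave exact permutation tests. No replicate pair agreed within sampling noise (chi-square per degree of freedom at least 18.8). PCR copies were not separated from molecules.

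Members, lists, tests and alternatives (DESeq2 1.42.0, limma-voom of limma 3.58.1, other scalings, filters and dispersion, a replicate block, libraries left out) were chosen with earlier results of these data known. Named genes are the members, Mt4, up to 4 called genes of smallest p per list, Ep300 and Crebbp, genes within 250 kb of the cluster (1 of which is not reported here), and the 5 genes most like Mt1, Mt2 and Mt3. Marker genes, Keap1 and Stat3 were picked for naming after their values were seen.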

Additional observations from a re-analysis of the deposited data

Results flagged for a closer look

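In groups of 4 libraries, 1 library stood apart by more than Dixon's 95% critical value for its gap over the group's range in 12 of 104 groups examined, where chance gives about 1 in 20. Values are CPM, with those of the other libraries of the group after them. In A485, replicate 3 had 24.2 for Slc30a3 (13.0 to 14.7) and 10.6 for Ogfod1 (7.55 to 7.95), and replicate 4 had 14.5 for Slc30a2 (9.29 to 9.89). A485 replicate 1 had 7.67 for Hif1a (13.9 to 14.8) and 11.9 for Ireb2 (20.7 to 22.4). In control, replicate 2 had 3.52 for Hif1a (6.68 to 7.13) and 1629 for Trim43a (1195 to 1261). Control replicate 4 had 8.44 for Ireb2 (7.08 to 7.22) and 11.3 for Crebbp (6.77 to 7.42), and control replicate 1 had 10.8 for Eps8l2 (7.84 to 8.26). Slc12a3 had 0.0440 in control replicate 1 and 0.408 in A485 replicate 3, and 0 counts in the other 6 libraries. None of the 5 members was among these.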

How the results depend on the processing

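The calls of Mt1, Mt2, Mtf1 and Slc30a1 kept direction and stayed past the threshold in all 19 alternatives, with log2 fold changes of -1.66 to -0.84, -1.46 to -0.70, -1.50 to -1.09 and 1.08 to 1.55. The log2 fold change of Mt3 ran from 9.07 to 11.4 over its 20 alternatives, and from 9.32 to 11.4 when 1 library was left out. The highest, 11.4, came without control replicate 1, which held 4 of the 5 control counts. With the 5 CPM filter, 2 MTF1 targets were called in place of 4, and 5 regulators in place of 8. With 1 library left out, 6 to 8 regulators and 4 to 5 MTF1 targets were called. With total-count scaling the median over all tested genes went from 0.09 to 0.37 (log2) and the share of calls that were higher went from 54.2% to 68.2%. Under it Mt1, Mt2 and Mtf1 remained lower and Slc30a1 higher. Same-numbered libraries had deviations correlated at 0.005, 0.014, 0.104 and 0.067, and those of other numbers at -0.127 to 0.143. With 4 libraries per group, these values cannot show whether the replicate numbers pair the libraries. With the replicate block 6671 genes were called in place of 7077. The block left 7 regulators called in place of 8, and gave -1.24 for Mt1, -1.08 for Mt2, -1.38 for Mtf1 and 1.27 for Slc30a1, all still past the threshold. Of the genes in the lists and beside the cluster, Ep300, Nfe2l2, Nudt21, Nup93 and Stat3 lost their call in 1 or more alternatives in which they were tested. Afp, Gclc, Nr3c1 and Ep300, called with all libraries, were not tested under the 5 CPM filter. Depth limits Mt3 in control, where 2 libraries held 0 counts.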
